A study of Mus musculus with 54 samples.

Results

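Of the 70446 open chromatin sites called by ATAC-seq in microglia of mice that received a single dose of LPS (PL), 6275 (8.91%) overlapped, by 1 bp or more, no site called in the LL, LP or PP groups. These PL-only sites were chosen by peak calls in those 4 lists, so their absence from LL, LP and PP, and their width and strength in PL, are a description and were not tested. The mice of these groups were C57BL/6J males, obtained at 7 to 9 weeks of age, that received 2 intraperitoneal injections 4 weeks apart: PBS then LPS (PL), LPS at both times (LL), LPS then PBS (LP), or PBS at both times (PP), with LPS at 1 mg/kg. At 3 h after the last injection, microglia were gated as cells high in CD11b, intermediate in CD45 and without Ly6C. Each ATAC list came from 1 library of 2 pooled mice, so no list has a replicate, and RNA came from 3 single mice per group. Lists from a second model served as a check in other mice: Ercc1 Δ/ko mice (KO) and control littermates (WT, which pool the wt/Δ, wt/ko and wt/wt genotypes), of mixed FVB and C57BL/6J background and 11 to 12 weeks old, after 1 injection of LPS (KO-LPS, WT-LPS) or PBS (KO-PBS, WT-PBS), again with 1 library of 2 mice per list.

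ATAC-seq reads out where a transposase can cut, which is mainly at promoters and enhancers freed of nucleosomes. LPS, a component of bacterial outer membranes, is sensed through the receptor Tlr4 and leads within hours to activation of NF-kB and of AP-1 factors such as Fos and Jun, which in macrophages bind at sites opened beforehand by lineage factors such as PU.1 and can also open new ones. Enhancers in use carry H3K27ac, and a cell that has met LPS before can respond less at some genes, which is called tolerance.

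A few PL-only sites are printed below, because the values that follow turn on sites of this kind. The first 4, each with a string, stood among the 12 strongest sites that were also open in both KO-LPS and WT-LPS, in neither PBS list, and under H3K27ac in PL, and the last 4, chosen after their values were seen, lie near genes whose RNA was higher in PL than in PP and LL. Each runs 5′ to 3′ on the + strand of GRCm38 and lies within 100 bp of the summit, and capitals mark matches to the strings searched.
Vav2, intron, chr2:27407011-27407211, with an AP-1 string: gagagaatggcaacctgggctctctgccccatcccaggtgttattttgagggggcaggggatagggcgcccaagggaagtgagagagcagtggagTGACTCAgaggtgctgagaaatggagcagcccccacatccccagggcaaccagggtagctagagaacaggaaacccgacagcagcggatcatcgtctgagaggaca
Ezr, intron, chr17:6749131-6749331, with overlapping MEF2 strings: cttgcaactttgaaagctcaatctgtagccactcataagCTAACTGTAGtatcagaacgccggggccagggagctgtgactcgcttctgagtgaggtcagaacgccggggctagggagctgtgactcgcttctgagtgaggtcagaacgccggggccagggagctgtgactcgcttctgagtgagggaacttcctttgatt
Map3k5, intron, chr10:19937028-19937228, with NF-kB and C/EBP strings: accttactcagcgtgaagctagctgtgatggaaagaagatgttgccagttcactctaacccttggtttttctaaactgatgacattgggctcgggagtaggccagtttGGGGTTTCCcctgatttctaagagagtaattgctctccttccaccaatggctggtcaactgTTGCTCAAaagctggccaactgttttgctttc
Pdyn, promoter, chr2:129699005-129699205, with an ISRE string: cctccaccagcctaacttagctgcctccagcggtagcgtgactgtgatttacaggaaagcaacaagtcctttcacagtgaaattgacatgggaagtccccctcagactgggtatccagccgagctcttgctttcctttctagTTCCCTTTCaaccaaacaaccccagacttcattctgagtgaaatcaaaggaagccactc
Tnfaip3, chr10:19008707-19008907, with AP-1 and NF-kB strings: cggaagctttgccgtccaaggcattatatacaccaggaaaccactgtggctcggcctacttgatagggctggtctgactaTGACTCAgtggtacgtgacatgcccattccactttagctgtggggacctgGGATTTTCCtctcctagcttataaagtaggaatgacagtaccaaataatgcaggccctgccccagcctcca
Il1rn, intron, chr2:24341457-24341657, with an AP-1 string: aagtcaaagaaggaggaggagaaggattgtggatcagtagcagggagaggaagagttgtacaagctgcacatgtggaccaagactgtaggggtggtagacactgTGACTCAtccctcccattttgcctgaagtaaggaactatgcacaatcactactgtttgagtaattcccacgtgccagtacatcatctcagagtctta
Ccl5, promoter, chr11:83530519-83530638, with PU.1 and NF-kB strings: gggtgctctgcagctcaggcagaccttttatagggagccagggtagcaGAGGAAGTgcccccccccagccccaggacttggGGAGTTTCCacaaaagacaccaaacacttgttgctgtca
Tnfaip2, chr12:111455857-111456057, with RUNX, NF-kB and ISRE strings: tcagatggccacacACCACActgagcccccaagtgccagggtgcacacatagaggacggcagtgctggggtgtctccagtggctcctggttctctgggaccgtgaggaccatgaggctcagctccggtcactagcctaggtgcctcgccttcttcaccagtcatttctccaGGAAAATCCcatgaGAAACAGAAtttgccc
The AP-1 string TGACTCA lies 5 bases or fewer from the summit at Vav2 and Il1rn. In the Ezr sequence a run of 45 bases occurs 2 times without a mismatch, and the stretch between these copies is nearly the same. Reads there are therefore harder to place.

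PL-only sites were narrow and weak beside the rest of the PL list. Their median width was 142 bp (quartiles 100 and 197 bp) and their median −log10 p, as the authors' peak caller gave it, was 2.55 (range 2.23 to 4.56), against 302 bp and 3.45 for all PL sites. Only 450 (7.17%) reached a −log10 p of 3. Sites found only in PP were as many (6329, or 9.15% of the PP list) and much alike (136 bp and 2.52), and 5749 sites were found only in LL (115 bp and 2.58) and 3073 only in LP. Sites shared by PL and LL but absent from LP and PP numbered 5048 and were wider (208 bp) and stronger (2.84). A site called in 1 list alone was therefore a common event in every group, and the lists of the other mice bear on which of these sites recurred. Near the limits of the rule, 508 PL-only sites (8.10%) lay less than 100 bp from a site of another list (median width 112 bp, −log10 p 2.55), whereas 33 PL sites fell outside it by an overlap of 10 bp or less (170 bp, 2.55). The median gap to the nearest site of LL, LP or PP was 957 bp, and 875 PL-only sites (13.9%) were more than 10 kb from any.

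In the independent libraries of the Ercc1 model, PL-only sites were found more often in the LPS than in the PBS lists. Of the 6275 sites, 1497 (23.9%) were open in KO-LPS and 1666 (26.55%, Wilson 95% interval 25.5 to 27.7) in WT-LPS, against 512 (8.16%) in KO-PBS and 107 (1.71%) in WT-PBS. Within WT mice, 1607 PL-only sites (25.6%) were open after LPS and not after PBS, and 48 (0.765%) the other way round. Over all PL sites these counts were 26191 (37.2%) and 517 (0.734%), and over PP-only sites 483 and 77, so the imbalance was not particular to PL-only sites. The lists differ in length, with 59019 sites in KO-LPS, 65323 in WT-LPS, 52325 in KO-PBS and 36412 in WT-PBS, and over all PL sites the shares were 68.5%, 77.8%, 61.8% and 41.4%. The part of list length in the contrast between LPS and PBS lists was not tested. A cut of each list to the same length, given below, was read against WT-LPS only. Sites found only in PP were open in 4.36% of cases in KO-LPS, 8.19% in WT-LPS, 3.95% in KO-PBS and 1.77% in WT-PBS. The difference from PP-only sites was 19.5 percentage points in KO-LPS (Newcombe 95% interval 18.3 to 20.7), 18.4 in WT-LPS (17.1 to 19.6), in KO-PBS 4.21 (3.38 to 5.05) and in WT-PBS −0.065 (−0.52 to 0.39). PL-only sites were therefore also more often open than PP-only sites in mutants that had received no LPS. LL-only sites were open in 12.9% of cases in KO-LPS and 21.4% in WT-LPS, lower than PL-only sites by 10.9 and 5.15 points, and the sites shared by PL and LL in 50.6% and 59.3%. These intervals count sites as independent and cover counting error only, and the background strain of the Ercc1 model differs from that of the PL mice.

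**Figure D1:**
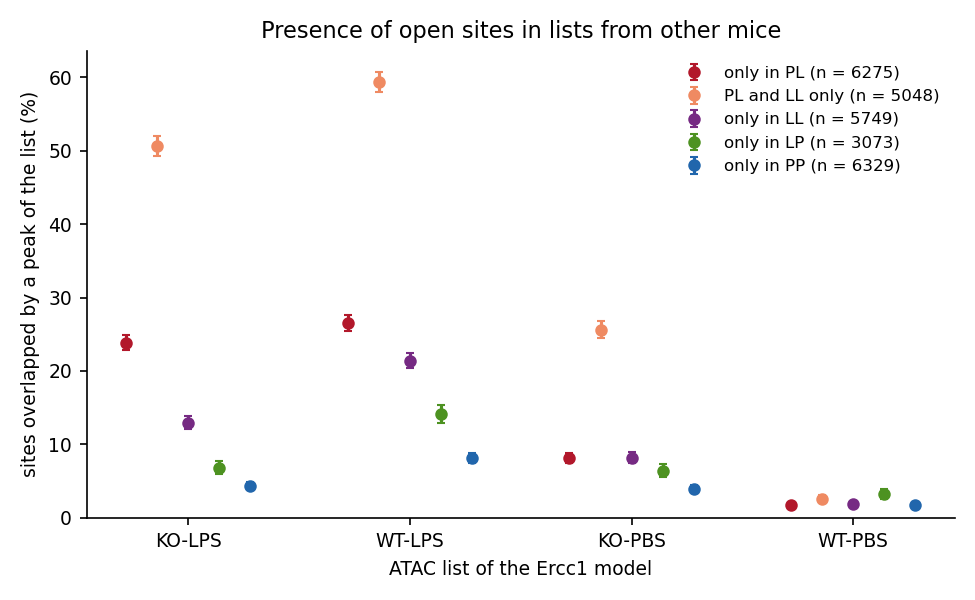
Share of sites (percent, y axis) overlapped by a site of each ATAC list of the Ercc1 model (x axis), for PL-only sites, sites shared by PL and LL only, and sites found in LL, LP or PP alone. Points are shares and bars Wilson 95% intervals, and PL-only sites stand at 23.9% in KO-LPS and 26.55% in WT-LPS, above LL-only, LP-only and PP-only sites.

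The share that recurred was larger for stronger sites. In WT-LPS it was 20.1% of the 2287 PL-only sites with a −log10 p of 2 to 2.5, 27.7% of the 3538 from 2.5 to 3, 47.9% of the 411 from 3 to 3.5 and 76.9% of the 39 at 3.5 or more. In WT-PBS the same bins stayed between 0% and 1.84%, with 0 of the 39 strongest, with a Wilson upper limit of 8.97%. In KO-PBS, however, the share also increased with strength, with 6.34%, 8.42%, 14.4% and 25.6% in the 4 bins. PP-only sites did not show this span, with 6.28%, 8.68% and 10.6% in WT-LPS for the first 3 bins. LL-only sites also climbed, with 17.8%, 23.5% and 37.2% in the same bins. Sites shared by PL and LL had 44.1%, 50.9%, 68.6% and 91.2% in the 4 bins, so the climb was not particular to PL-only sites. Both LPS lists and neither PBS list held 473 PL-only sites (7.54%), against 43 PP-only sites (0.679%) and 228 LL-only sites (3.97%), but 8.12% of all PL sites and 20.2% of those shared by PL and LL were of this kind. A further 3590 PL-only sites (57.2%) were in none of the 4 lists. With each list cut to its 36412 strongest sites, 1897 sites were found only in PL, of which 42.0% were open in WT-LPS, against 10.8% of 1846 found only in PP.

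**Figure D2:**
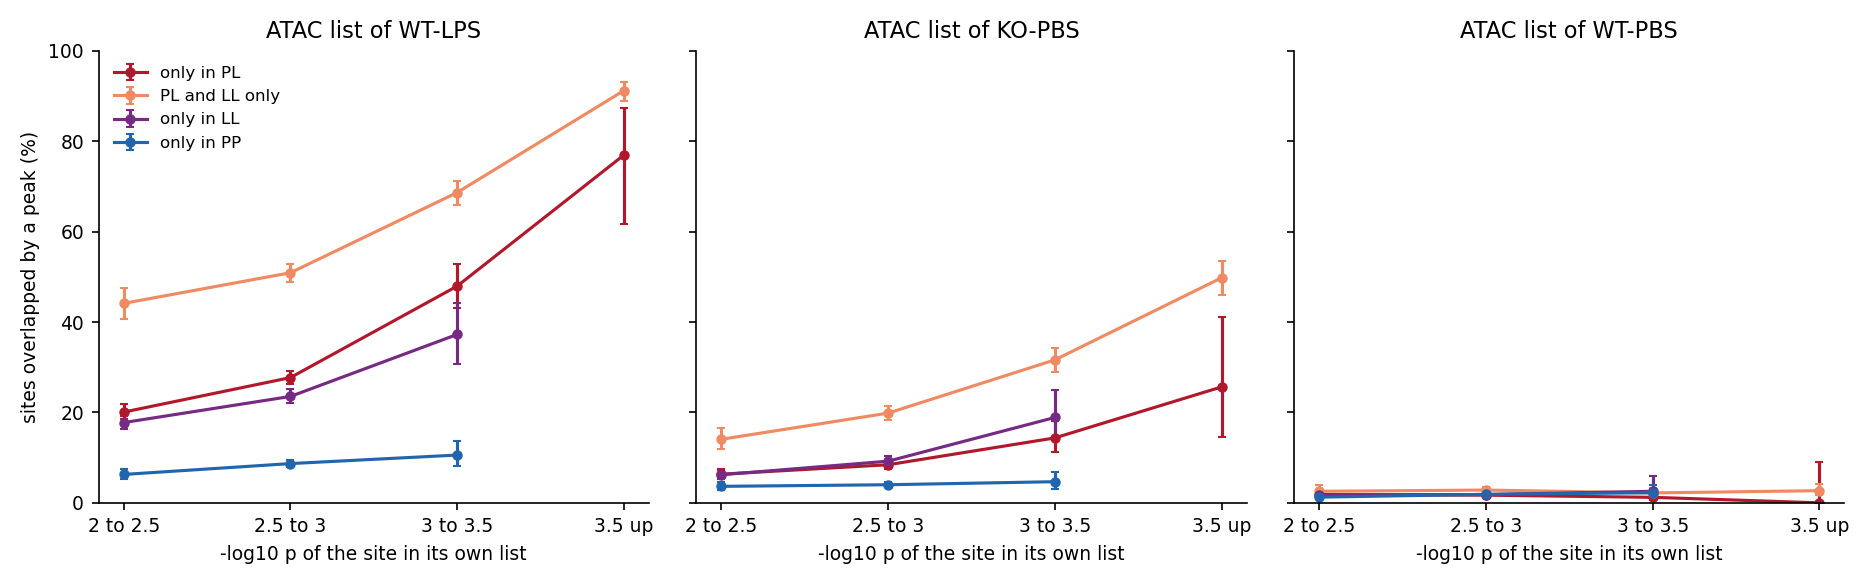
Share of sites (percent, y axis) overlapped by a site of the WT-LPS (left), KO-PBS (middle) or WT-PBS list (right), by the −log10 p of the site in its own list (x axis), for PL-only, PL and LL only, LL-only and PP-only sites, with Wilson 95% intervals. PL-only sites climb to 76.9% in WT-LPS and 25.6% in KO-PBS and stay at 1.84% or less in WT-PBS, and bins with few sites are not drawn. LL-only sites and sites shared by PL and LL also climb in WT-LPS.

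PL-only sites lay nearer to genes than PP-only sites, at about the distance of PL sites in general. Promoters, within 1000 bp of a start, held 990 of them (15.8%, against 7.87% of PP-only sites and 23.4% of all PL sites), introns 3184 (50.7%) and intergenic sequence 1727 (27.5%, against 35.5% of PP-only and 28.2% of all PL sites). The median distance to the nearest start of a gene was 8.68 kb for PL-only, 10.2 kb for LL-only, 18.8 kb for PP-only and 8.67 kb for all PL sites. Chromosome 11 had the highest share of PL-only sites among its PL sites, 11.7%, and chromosome X the lowest among autosomes and X, 5.50%. Base composition differed as well, with 50.4% G and C around PL-only summits, 47.2% around PP-only summits and 52.4% around all PL summits.

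H3K27ac regions of PL covered 2297 PL-only sites (36.6%). The same sites were covered to 39.2% by LL, 38.6% by LP and 34.3% by PP regions, so most H3K27ac at these sites was also called without LPS, and 1737 sites (27.7%) were covered in all 4 groups while 3292 (52.5%) were covered in none. Coverage in PL but not PP was seen at 426 sites (6.79%) and in PP but not PL at 281 (4.48%), whereas PP-only sites showed the reverse order, 2.73% and 8.19%. LL-only sites had 6.45% and 5.62%, sites shared by PL and LL 11.5% and 3.96%, and all PL sites 4.16% and 5.23%. The order at PL-only sites was therefore not particular to them. The regions together covered 66.3 Mb in PL, 72.8 Mb in LL, 79.3 Mb in LP and 71.5 Mb in PP, and the part of list length in these shares was not tested. Coverage in PL was 10.7 points higher at PL-only than at PP-only sites (9.12 to 12.3). The difference from LP-only sites was −1.24 points (−3.33 to 0.841), so PL-only sites did not stand above both groups last given PBS. Coverage was lower than at other sites open after LPS, with a difference of −4.91 points from LL-only sites (−6.66 to −3.16). From sites shared by PL and LL the difference was −11.4 points (−13.2 to −9.56), and 63.8% of all PL sites were covered. Coverage in PL fell to 21.7% for the 3832 PL-only sites with no site of LL, LP or PP within 500 bp. H3K4me3, a mark of promoters, covered 33.1% of PL-only sites in PL and 32.7% in PP. In PL it covered 32.7% of LL-only, 20.5% of PP-only and 58.9% of all PL sites. H3K4me1, a mark of enhancers, covered 74.6% and 77.3% of PL-only sites in its 2 lists of Ercc1 model mice given PBS. In the same order it covered 77.2% and 80.6% of LL-only, 69.5% and 75.9% of PP-only, and 84.4% and 88.0% of all PL sites.

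AP-1 and NF-kB strings were more frequent near the summits of PL-only sites than near those of LL-only, LP-only or PP-only sites. Within 100 bp of the summit and on both strands, the AP-1 string TGANTCA was present at 14.2% of PL-only sites (13.4 to 15.1), against 7.55% of LL-only, 4.88% of LP-only, 5.14% of PP-only and 9.25% of all PL sites. Sites shared by PL and LL had 17.0%. The NF-kB strings GGNNTTTCC or GGAATTCC were at 5.79% of PL-only sites (5.23 to 6.39), against 3.15% of LL-only, 3.70% of PP-only and 4.55% of all PL sites. Sites shared by PL and LL had 4.95% (4.39 to 5.59), an interval that overlaps that of PL-only sites. These shared sites, which are wider, had 6.26% over the whole site, against 5.07% of PL-only sites. Over the whole site the order against all PL sites, which are wider, turned round, with AP-1 at 12.9% of PL-only and 15.2% of all PL sites and NF-kB at 5.07% and 9.65%. The PU.1 string GAGGAAGT, of the myeloid lineage factor, was less frequent, at 5.12% of PL-only sites against 6.68% of PP-only and 8.80% of all PL sites. LL-only sites had a similar share, 5.22%, so the low share was not particular to PL-only sites. The MEF2 string CTANNNNTA was at 16.1% of PL-only sites, below PP-only (20.5%) and LL-only sites (18.6%). That share was above the 14.8% of PL sites that were also called in PP or LP. Strings of interferon-activated factors (ISRE, GAAANNGAA) were at 7.33% of PL-only and 7.88% of PP-only sites, and RUNX strings (TGTGGT) at 16.6% and 17.3%. The C/EBP string TTGCNNAA was at 8.77% of PL-only, 10.3% of LL-only, 7.52% of LP-only and 9.21% of PP-only sites. In the same order, the GAS string TTCNNNGAA of STAT factors was at 7.43%, 5.97%, 6.18% and 6.40%. Sites shared by PL and LL had 12.8% for C/EBP and 8.78% for GAS, both above PL-only sites. A match is a description of the letters and not evidence of binding, and strings can overlap.

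**Figure D3:**
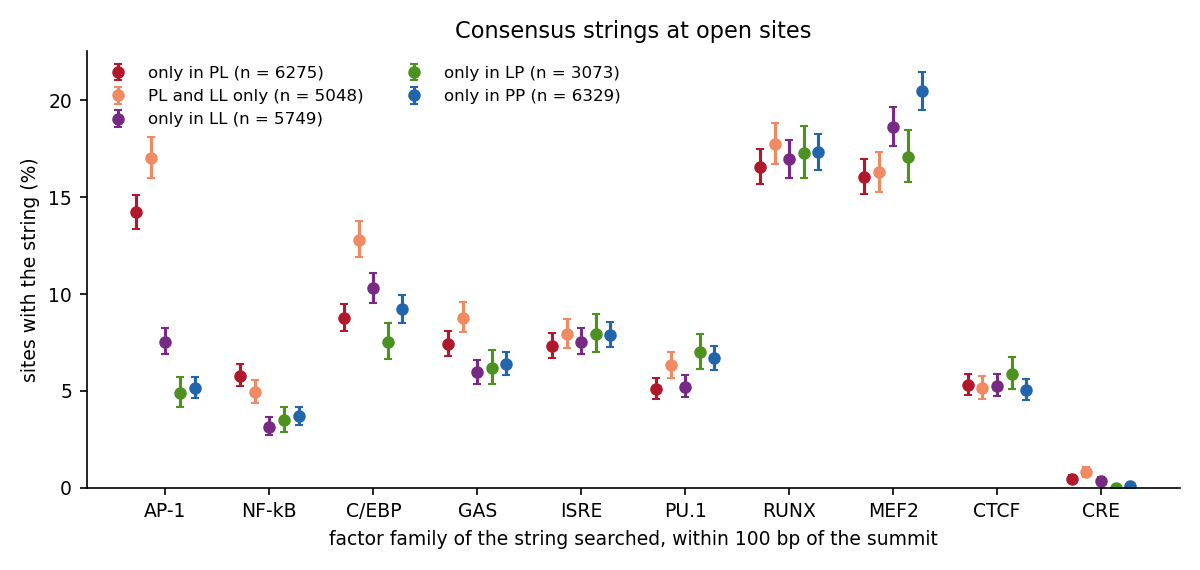
Share of sites (percent, y axis) with each consensus string within 100 bp of the summit (x axis), by group of sites, with Wilson 95% intervals. AP-1 stands at 14.2% of PL-only sites and 5.14% of PP-only sites, and RUNX and CTCF differ little between groups.

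The recurring sites carried more AP-1 and NF-kB strings. Among the 473 PL-only sites open in both LPS lists and neither PBS list, 11.6% had an NF-kB string (9.04 to 14.8) and 21.6% an AP-1 string (18.1 to 25.5), against 3.57% (3.01 to 4.22) and 11.9% (10.9 to 12.97) of the 3590 in none of the Ercc1 lists. The MEF2 string was at 13.7% (10.9 to 17.1) and 16.9% (15.7 to 18.2) of these sites, intervals that overlap. AP-1 strings were also more frequent in the non-recurring PL-only sites than in PP-only sites (5.14%). NF-kB strings were not, at 3.57% of the non-recurring PL-only sites against 3.70% of PP-only sites.

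Genes nearest to PL-only sites were more often higher in PL. A start lay within 100 kb of 6097 sites, these had 4190 nearest genes, and 2708 of those were tested. Between PL and PP, 508 (18.8%, 17.3 to 20.3) were called higher in PL, against a background of 9.64% of all 16096 genes tested, and 217 (8.01%) were called lower, against 9.09%. Between PL and LL, 79 (2.92%, 2.35 to 3.62) were called higher, against 1.22%, and 5 lower (0.185%), against 0.186%. A call needs an adjusted p under 0.01 by edgeR's quasi-likelihood test and a change of at least 1 on the log2 scale. Without LL replicate 2, 51 were called higher than in LL. Near PP-only sites the order was reversed, with 7.68% higher and 15.5% lower in PL than in PP, and near LL-only sites 15.6% were higher in PL than in PP and 1.61% higher than in LL. Near sites shared by PL and LL the shares were 22.0% and 3.32%, at or above those near PL-only sites, so the higher RNA was not particular to PL-only sites. Nearness does not tie a site to a gene. Genes near PL-only sites were also more abundant (median 42.7 CPM, not corrected for length, against 17.6 CPM over all genes tested), and the part of abundance in these shares was not tested.

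Several sites at 1 gene went with more calls. Of genes with 1 PL-only site 15.1% were higher in PL than in PP (n = 1914), of genes with 2 sites 21.2% (n = 490), and of genes with 3 or more 38.2% (n = 304, 32.9 to 43.7), with median abundances of 34.3, 65.8 and 116 CPM. Of the 275 tested genes near the sites in both LPS lists and neither PBS list, 76 (27.6%) were higher in PL than in PP and 20 (7.27%, 4.76 to 10.97) higher than in LL. Near the sites in none of the Ercc1 lists these shares were 19.0% and 2.39% (1.76 to 3.22) of 1719 genes. For H3K27ac in PL the shares higher in PL than in PP were 19.5% near covered sites (17.4 to 21.8) and 20.5% near uncovered sites (18.7 to 22.4), intervals that overlap. Of 3549 PL-only sites inside the body of a tested gene, 26.3% lay in a gene higher in PL than in PP and 5.64% in a lower one, against 5.07% and 14.4% of PP-only sites, while 32.1% of the sites shared by PL and LL lay in a higher gene. Over all PL sites in such bodies the shares were 13.8% and 10.9%, and over LL-only sites 19.3% and 7.93%. Of the 508 genes, 74 were also called higher than in LL and 434 were not.

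**Figure D4:**
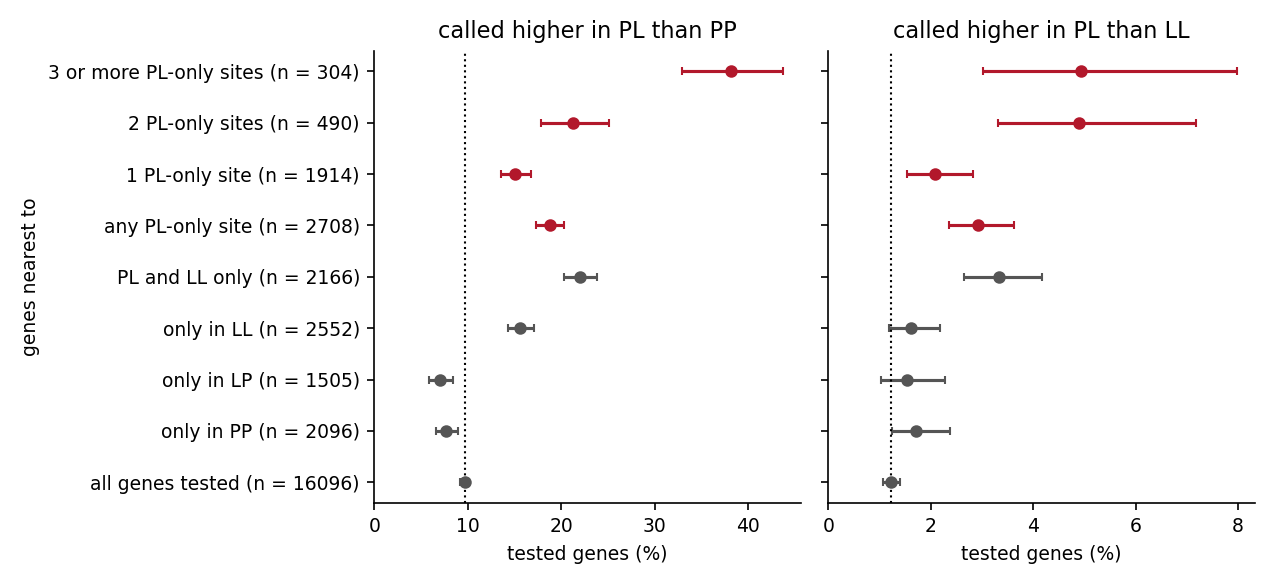
Share of tested genes (percent, x axis) called higher in PL than in PP (left) or LL (right), for genes nearest to each group of sites (y axis), with Wilson 95% intervals. The dotted lines mark all genes tested (9.64% and 1.22%), and genes with 3 or more PL-only sites stand at 38.2% on the left.

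Inhibitors and subunits of NF-kB were among the genes with most sites. The list of 15 such genes held 7 with PL-only sites (41 sites), all 7 higher in PL than in PP and 3 higher than in LL, and over the whole list 14 and 8 were higher. Over all genes tested, 2708 of 16096 were nearest to a PL-only site, a background for this and the later gene lists. Tnfaip3, which encodes the A20 enzyme that restrains NF-kB signalling, had 11 sites over 50.6 kb, 10 of them open in KO-LPS, 2 in WT-LPS and 1 in a PBS list. Its RNA was at 577, 494 and 489 CPM in PL, 93.7, 79.5 and 98.7 CPM in LL, and 95.3, 84.7 and 90.1 CPM in PP. PL stood apart from both other groups, which overlapped, and the log2 fold change was 2.53 ± 0.12 (SE, edgeR adjusted p = 1.42e-09) over PP and 2.52 ± 0.12 (adjusted p = 5.93e-08) over LL. Nfkb1, which encodes the p105 and p50 subunit, had 12 sites, 5 of them in an LPS list and 4 with an AP-1 string, and was at 581, 502 and 522 CPM in PL, 287, 262 and 283 CPM in LL, and 262, 240 and 237 CPM in PP. It passed the call over PP (log2 fold change 1.12 ± 0.09) and stayed just under the size needed over LL (0.95 ± 0.09, edgeR adjusted p = 3.51e-05). Nfkbiz, an inducible nuclear IkB protein, and Birc3, a ubiquitin ligase of the same pathway, had 11 and 9 sites and averaged 200 ± 16.0 and 293 ± 27.8 CPM in PL, 107 ± 13.6 and 135 ± 12.2 CPM in LL, and 29.0 ± 6.29 and 40.0 ± 2.7 CPM in PP (SD, n = 3 each).

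Cytokine and chemokine genes had few sites each. In the list of 16 inflammatory cytokines, 10 had PL-only sites (17 sites), of which 6 were tested, with 5 higher in PL than in PP and 4 higher than in LL, and of all 10 tested 8 and 7 were. In the list of 17 chemokines 6 had sites (14 sites), all 6 higher than in PP and 4 higher than in LL, and of all 13 tested 12 and 9 were. Il1rn, the antagonist of the interleukin-1 receptor, had 1 intronic site, open in both LPS lists and under H3K27ac in none of PL, LL, LP and PP. Il1rn RNA was at 142, 104 and 72.4 CPM in PL, 18, 10.1 and 14 CPM in LL, and 0.462, 0.513 and 0.572 CPM in PP. The groups did not overlap, and the log2 fold change over LL was 2.91 ± 0.24 (edgeR adjusted p = 7.74e-06). Ccl5, a chemokine for T cells and monocytes, had a site 20 bp upstream of its start, open in KO-LPS and not in WT-LPS. That site was also under H3K27ac in none of PL, LL, LP and PP. Ccl5 RNA was at 60.2, 55.3 and 34.5 CPM in PL, 5.36, 2.79 and 3.61 CPM in LL, and 1.38, 0.897 and 0.381 CPM in PP. Its log2 fold change over LL was 3.64 ± 0.27 (edgeR adjusted p = 3.5e-06). Cxcl10, an interferon-induced chemokine, had the highest RNA of these 3, with 708, 516 and 418 CPM in PL, 23.2, 17.6 and 33.1 CPM in LL, and 3.92, 2.34 and 2.67 CPM in PP, but neither of its 2 sites was open in any list of the Ercc1 model. Il1a, the alarm cytokine interleukin-1 alpha, had 5 sites, all open in KO-LPS and 3 in WT-LPS, and averaged 715 ± 224 CPM in PL, 306 ± 26.7 CPM in LL and 85.3 ± 11.2 CPM in PP. Its call over LL was lost without PL replicate 1 (log2 fold change 0.95) or without LL replicate 2 (edgeR adjusted p = 0.0127).

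Among the other genes with the largest calls over LL, sites were single or in pairs. Gpr132, a receptor for lysophospholipids and lactate, was at 21.9, 22.5 and 20.2 CPM in PL and 1.22, 0.733 and 0.677 CPM in LL, and its 1 promoter site was in no Ercc1 list. Cd40, the costimulatory receptor, had 2 intronic sites, both open in KO-LPS and neither in WT-LPS, and was at 55.2, 36.5 and 33.8 CPM in PL against 4.52, 3.23 and 4.06 CPM in LL. Rnd1, a small GTPase, had 1 site with an AP-1 string that was open in KO-LPS, and was at 34.4, 28.6 and 28.2 CPM in PL against 4.02, 2.20 and 4.06 CPM in LL. The call over LL held for all 3, at 4.53 ± 0.35, 3.41 ± 0.28 and 3.16 ± 0.26 on the log2 scale.

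The other lists of LPS response genes differed in how many genes had a site. Of 10 tested immediate early and AP-1 genes with sites, 8 were higher in PL than in PP and 4 higher than in LL, and the whole list of 17 tested had 13 and 4. Of 11 Toll-like receptor signalling genes with sites, 7 were higher than in PP and 1 higher than in LL, and of all 18 tested 9 and 1 were. Of 24 tested interferon-stimulated genes, 5 had a site, beside 2708 of all 16096 genes tested. Of the same 24, 21 were higher in PL than in PP and 14 higher than in LL. Dusp2, a phosphatase that acts on MAP kinases, had 3 sites and was at 72.6, 64.7 and 57.3 CPM in PL, 12.2, 7.77 and 8.58 CPM in LL, and 0.577, 1.47 and 0.762 CPM in PP. Tlr4 itself, with 1 intronic site, went the other way, with 81.1, 46.1 and 62.6 CPM in PL, 84.2, 97.4 and 99.4 CPM in LL, and 120, 115 and 117 CPM in PP, and its change over PP (log2 −0.88 ± 0.16) did not reach the size needed for a call.

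The genes with most sites, singled out after their values were seen, were not all genes that differed between PL and LL. Runx1, a lineage transcription factor, had 25 sites, all inside its gene body within 44.3 kb, with 4 open in KO-LPS, 18 in WT-LPS and 0 in a PBS list. Its RNA was at 1220, 1010 and 1070 CPM in PL, 1060, 802 and 1030 CPM in LL, and 126, 116 and 130 CPM in PP, so that PL and LL overlapped (log2 fold change 0.19 ± 0.11, edgeR adjusted p = 0.325) and both lay above PP. Pfkfb3, which drives glycolysis, had 17 sites, 14 open in KO-LPS and 7 in WT-LPS, and was at 1500, 1390 and 1340 CPM in PL, 897, 666 and 857 CPM in LL, and 205, 208 and 218 CPM in PP. Fosl2, an AP-1 factor, had 11 sites, 0 of them open in KO-LPS and 7 in WT-LPS, and averaged 915 ± 120 CPM in PL, 692 ± 97.0 CPM in LL and 22.3 ± 4.88 CPM in PP. Picalm, which acts in endocytosis, had 11 sites, 8 open in WT-LPS, and averaged 2770 ± 386 CPM in PL, 2480 ± 139 CPM in LL and 789 ± 23.5 CPM in PP. Fam49b (14 sites), Rapgef5 (13) and the lysosomal protease gene Lgmn (10) were not called between PL and PP, with log2 fold changes of 0.61, 0.42 and −0.17. Sites in 1 gene body come from the same library and stretch of chromatin, and are not independent of each other.

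**Figure D5:**
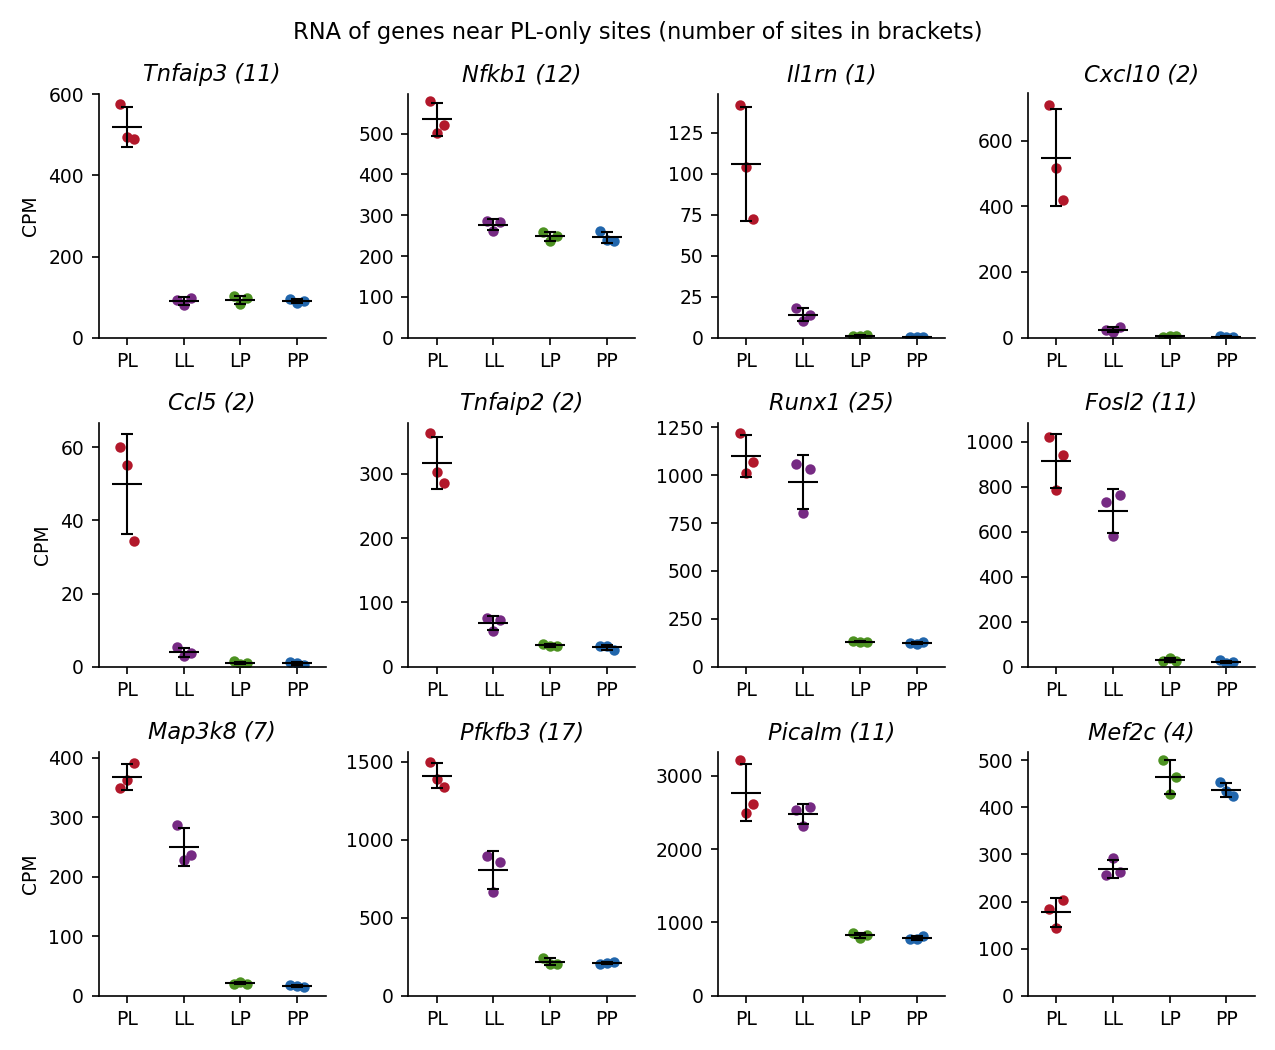
RNA level (CPM, y axis, from 0) in each mouse by group (x axis) for 12 genes near PL-only sites, with the number of sites in brackets. Points are mice, and bars the mean and SD of 3. Tnfaip3 in PL (489 to 577 CPM) stands apart from the other groups, whereas Runx1 and Picalm overlap between PL and LL, and Mef2c is lower in PL than in PP.

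Sites near genes of resting microglia were not accompanied by higher RNA. Of 20 homeostatic genes 7 had sites (16 sites), none was higher in PL than in PP, and 1 was lower, against 6 lower over the whole list. That gene was Mef2c, a lineage factor of microglia, with 4 intronic sites that were in no Ercc1 list and averages of 177 ± 30.3 CPM in PL, 270 ± 19.4 CPM in LL and 437 ± 15 CPM in PP (log2 fold change over PP −1.30 ± 0.12, edgeR adjusted p = 1.02e-06). Fcrls, with 4 sites also in no Ercc1 list, averaged 3140 ± 533 CPM in PL, 3140 ± 47.2 CPM in LL and 2630 ± 399 CPM in PP. Rnf144b and Plau, the urokinase gene, each had 1 site and were among the genes lowest in PL relative to PP, at 10.4 ± 6.21 and 14.4 ± 4.97 CPM in PL against 104 ± 15.5 and 108 ± 7.82 CPM in PP.

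The strongest sites were not always near expressed genes. The highest −log10 p, 4.56, belonged to a site of 2891 bp, 4709 bp from the start of Btg2, an antiproliferative immediate early gene, which was open in WT-LPS and under H3K27ac in PL, LL and LP but not PP. Btg2 was at 732, 533 and 661 CPM in PL, 407, 422 and 391 CPM in LL, and 168, 168 and 165 CPM in PP, and was called over PP (log2 fold change 1.94 ± 0.11) and not over LL (0.66 ± 0.11). The site of 1020 bp near Tnfaip2 (−log10 p 3.99) was open in both LPS lists, and under H3K27ac in LL, LP and PP but not PL. Tnfaip2, a TNF-induced gene, was at 363, 303 and 286 CPM in PL, 75.8, 56.0 and 72.8 CPM in LL, and 31.6, 32.2 and 26.0 CPM in PP. Its log2 fold change was 3.40 ± 0.14 over PP and 2.22 ± 0.13 over LL (edgeR adjusted p = 5.73e-10 and 9.87e-07). Others of the 6 strongest had nearest genes with no counts in PL, LL and PP (4933426B08Rik, Dppa3 and Gm31479) or, at Gtdc1, with overlapping levels of 21.4 to 24.8 CPM in PL, 23.7 to 26.9 CPM in LL and 24.4 to 29.7 CPM in PP. Of the 160 sites open in both LPS lists and neither PBS list and under H3K27ac in PL, the 12 strongest included Ezr, a linker of membrane and cytoskeleton, at 11.2, 13.5 and 16.2 CPM in PL and 3.92, 3.46 and 3.81 CPM in PP. They also included Map3k5, at 64.7, 56.2 and 74.0 CPM in PL and 70.8, 72.5 and 69.5 CPM in PP, and Vav2, at 115, 104 and 129 CPM in PL and 237, 226 and 229 CPM in PP, so that a recurring site stood near genes that were higher, level or lower.

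RNA libraries held 4530395 to 15307836 counts. Summed markers of microglia were at 14300 to 19800 CPM in PL, 21000 to 23400 CPM in LL and 27400 to 30400 CPM in PP. The list of 7 monocyte markers was at 60.4 to 102 CPM in PL, 47.7 to 59.5 CPM in LL and 25.8 to 30.8 CPM in PP, with 4 of its genes higher in PL than in PP, and that of 8 neutrophil markers reached 255 CPM in 1 PL library and spanned 0.971 to 255 CPM in PL and 0 to 44.8 CPM in PP, where 3 of the 8 were at 0 in every library. Their part in the results was not tested. In sorted bulk samples, fewer cells of a type and less RNA per cell cannot be told apart.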

How the data were processed

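The authors aligned ATAC and ChIP reads to GRCm38 with Bowtie2 2.3.5.1 and removed duplicates, blacklisted and poorly placed reads. The deposited ATAC lists, called by the authors with Genrich 0.5 in its ATAC mode, give a score, a signal and a −log10 p per site, and the depth of the ATAC libraries is unknown. The deposited lists of the marks, called with SPAN against input and with limits set by hand per sample, give a score, a signal and −log10 values that were not used beyond position. H3K27me3 lists were not used. The deposited RNA tables hold expected counts, made by the authors with STAR 2.7.3a and featureCounts 2.0.0, beside gene lengths.

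Sites were shared at an overlap of 1 bp. Consensus strings were searched in GRCm38 on both strands. Nearest genes came from GENCODE starts within 100 kb. Expected counts were rounded, which kept at least 99.99% of each total, filtered with filterByExpr, scaled by TMM and tested over the 4 groups together with edgeR 4.0.16 (R 4.3.3, quasi-likelihood, Benjamini-Hochberg over all genes tested), and CPM are counts scaled to a common library total. The script was tested on simulated counts. Shares carry Wilson and differences Newcombe 95% intervals. Alternatives were DESeq2 1.42.0, limma 3.58.1 with and without sva 3.50.0, RLE scaling, other filters, the compared groups alone, a replicate block, each library left out, and for sites a stricter −log10 p, a 500 bp gap, a 50% overlap, equal list lengths, other distances and motif windows. The sites and gene lists were chosen with earlier results of these data known. Named sites were the 6 strongest, the 12 strongest open in both LPS lists and neither PBS list and under H3K27ac of PL with a tested gene, and up to 2 per gene list. Named genes had the largest called changes among genes that averaged 5 CPM or more and whose groups of libraries did not overlap.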

Additional observations from a re-analysis of the deposited data

How the results depend on the processing

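Results on sites moved with how sites were defined. Requiring a −log10 p of 3 left 450 PL-only sites, of which 50.4% were open in WT-LPS and 39.3% under H3K27ac in PL, with 89 of 284 nearest genes (31.3%) higher in PL than in PP and 22 (7.75%) higher than in LL. Requiring no site of another list within 500 bp left 3832 sites, with 24.2% in WT-LPS and 21.7% under H3K27ac. Equal list lengths left 1897 sites, with 42.0% in WT-LPS, and an overlap of 50% of the shorter site gave 25.4% of 6750 sites in WT-LPS. AP-1 strings were at 8.65% of PL-only and 5.20% of all PL sites within 50 bp of the summit, and at 12.9% and 15.2% over the whole site. NF-kB strings were at 2.34% and 1.93% within 50 bp and at 5.07% and 9.65% over the whole site, so the order against all PL sites turned round there. Leaving out each library in turn gave 499 to 517 genes higher in PL than in PP and 51 to 91 higher than in LL, the lowest without LL replicate 2.

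With a replicate block the counts were 505 and 78. Same-numbered libraries correlated at −0.131 to 0.16, so the numbers do not pair the mice. The counts over PP were 510 with DESeq2, 515 with RLE scaling, 540 unfiltered, 518 at a 1 CPM minimum, 533 with limma and sva and 508 with limma alone, and all counts over LL from these and from the compared groups alone were 75 to 108. For the named genes, 1463 of 1509 alternative values kept the call or its absence, 20 lost a call and 26 gained one. Direction was compared only where the main or the alternative value was called, and 0 of these reversed. ATAC and mark lists have 1 library each, so nothing here measures the spread between mice, and weak sites are limited by a depth that is unknown.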
